A study of Homo sapiens with 9 samples.

Results

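The genes described here lie side by side on the long arm of chromosome 11, in band 11q23, and number 8 of the 25680 gene symbols in the count files. They are SCN4B, SCN2B, AMICA1, MPZL3, MPZL2, CD3E, CD3D and CD3G. AMICA1 and MPZL2 were picked because their counts were higher in ASXL2 knockdown cells, so their difference from the control is given as a description without a test. The other 6 were picked for their position beside them. The question was whether the stretch of genes moved together when ASXL2 was depleted.

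The cells were SKNO-1, a line from acute myeloid leukaemia with the AML1-ETO (RUNX1-RUNX1T1) fusion that is grown in GM-CSF, and their RNA was sequenced. Every sample carried this fusion, and 3 groups of 3 samples were compared. The control group, called EV in the labels and described in the study as a control shRNA, is written shControl. The groups labelled SH2 and SH3 received different shRNAs against ASXL2, a Polycomb-associated chromatin protein, and are written shASXL2-2 and shASXL2-3. Each group held samples numbered 1, 13 and 25. What the numbers stand for is not stated in the labels, and all samples came from a single cell line. The study describes the triplicates as biological, but no label says that they came from separate cultures, so p-values measure the spread between these samples, which may be technical.

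Several of these genes encode small cell-surface proteins of the immunoglobulin superfamily. AMICA1, now named JAML, is a leukocyte adhesion molecule of the junctional adhesion molecule family that binds CXADR on epithelial cells and helps leukocytes to cross epithelia. MPZL2 and MPZL3 are related to each other and act in adhesion of epithelial cells, MPZL2 being also known from thymic epithelium. SCN4B and SCN2B encode beta subunits of voltage-gated sodium channels, which carry an immunoglobulin fold as well. CD3E, CD3D and CD3G encode the signalling chains of the T-cell receptor and mark T cells, whereas SKNO-1 is a myeloid line.

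On GRCh37, the build of the count files, SCN4B occupied chr11:118004092-118023603, SCN2B chr11:118033521-118047354, AMICA1 chr11:118064440-118095807, MPZL3 chr11:118097405-118123080 and MPZL2 chr11:118124131-118135251, all on the minus strand. CD3E followed at chr11:118175445-118186890 on the plus strand, CD3D at chr11:118209790-118213420 on the minus strand and CD3G at chr11:118215059-118225876 on the plus strand. No pair of neighbours among the members overlapped. AMICA1, MPZL3 and MPZL2 were packed closest, with 1.60 kb between AMICA1 and MPZL3 and 1.05 kb between MPZL3 and MPZL2. SCN4B and SCN2B were 9.92 kb apart, SCN2B and AMICA1 17.1 kb, and MPZL2 and CD3E 40.2 kb. The libraries were unstranded, so reads from either strand were counted together.

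The 250 bases before the start sites of AMICA1, SCN4B and SCN2B are shown because AMICA1 and SCN4B had more counts in knockdown samples, while SCN2B, which lies between them, was hardly detected. They were read from the RefSeq promoter table, which uses GRCh38.p14, so their coordinates cannot be set beside those above. The table gives 1 start site per gene, and within GRCh38.p14 it lies 12.1 kb inside the outermost RefSeq start of AMICA1 and 7.39 kb inside that of SCN4B, while that of SCN2B is the outermost. AMICA1 (listed as JAML) is at chr11:118212947-118213196, SCN4B at chr11:118145434-118145683 and SCN2B at chr11:118176640-118176889, each printed from the minus strand in the direction of the gene. The letters TGTGGT, a core of the RUNX motif, and AGGAAG, a core of the ETS motif, were searched on both strands and are in capitals.
AMICA1: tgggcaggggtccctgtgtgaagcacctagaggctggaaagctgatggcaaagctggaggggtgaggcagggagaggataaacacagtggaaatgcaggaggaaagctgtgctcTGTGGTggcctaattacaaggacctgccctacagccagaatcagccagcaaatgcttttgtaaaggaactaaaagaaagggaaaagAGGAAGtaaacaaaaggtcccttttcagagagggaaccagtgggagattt
SCN4B: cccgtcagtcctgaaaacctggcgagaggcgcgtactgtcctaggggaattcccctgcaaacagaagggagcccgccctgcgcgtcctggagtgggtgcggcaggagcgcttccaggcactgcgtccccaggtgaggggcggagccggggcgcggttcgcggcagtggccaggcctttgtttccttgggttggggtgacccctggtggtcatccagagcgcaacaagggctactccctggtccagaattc
SCN2B: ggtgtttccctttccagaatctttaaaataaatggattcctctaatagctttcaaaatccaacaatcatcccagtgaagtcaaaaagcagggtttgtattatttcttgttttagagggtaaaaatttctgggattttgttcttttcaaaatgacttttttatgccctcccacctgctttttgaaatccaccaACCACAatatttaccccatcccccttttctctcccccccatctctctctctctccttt
The AMICA1 sequence held TGTGGT 136 to 131 bases before the start and AGGAAG 50 to 45 bases before it. SCN2B held TGTGGT on the opposite strand, 58 to 53 bases before its start. SCN4B held neither, and the AP-1 letters TGANTCA were in none of the 3. These are common strings. Among 35116 promoter sequences of the same length, 11% held TGTGGT, 28.7% held AGGAAG and 6.57% held TGANTCA. The GC content was 50.0% for AMICA1, 66.0% for SCN4B and 38.0% for SCN2B. The table also held CD3D, whose sequence had TGTGGT 200 to 195 bases before the start and AGGAAG on the opposite strand at 106 to 101 and 102 to 97 bases, in overlapping matches. Both strings marked in AMICA1 were thus also present before CD3D. Whether any of these strings acts on its gene was not tested. MPZL2, MPZL3, CD3E and CD3G had no entry.

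Totals with 1 transcript per gene were between 27714431 and 35406063 counts per sample, so that 3 counts, taken as the floor of detection, stood for 0.0847 to 0.108 CPM (counts scaled by library size). This floor used the plain totals. On the normalized scale of the gene values, 3 counts stood for 0.0825 CPM in shControl 1 and 0.109 CPM in shASXL2-3 number 25. ASXL2 itself, the target of the shRNAs, was at 67.9, 67.9 and 74.7 CPM in shControl 1, 13 and 25. It was at 30.4, 36.2 and 36.2 CPM in shASXL2-2 and at 26.9, 29.1 and 41.1 CPM in shASXL2-3, below every control. Samples with the same number resembled each other: in the fit with the number as a block, 46.3% of the 14199 genes tested differed between number 1 and numbers 13 and 25 (edgeR, adjusted p under 0.05). Within groups, shASXL2-3 number 1 lay furthest from its replicates, with a chi-square per degree of freedom of 124 to 134 against 18.1 to 55.9 for the other pairs. For these reasons each result is given both without the block, which was the main fit, and with it. Of the myeloid progenitor markers 10 of 11 passed the low-count filter, with 8438 CPM of MPO, the myeloperoxidase of granule-forming cells, but CD34, the stem cell antigen, was at 0.145 CPM and did not pass.

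Of the 8 members, SCN4B, AMICA1, MPZL3 and MPZL2 passed the low-count filter (4 of 8), and a gene can pass it through the group in which it is high. This was so for SCN4B, which reached the filter's level of 0.329 CPM in 2 of 3 controls and in 6 of 6 knockdown samples, where 3 samples were needed. The other 3 genes reached it in every control. All 4 were rare messages, with 5 to 104 counts in a sample. AMICA1, the leukocyte adhesion molecule, was measured at 1.65, 0.850 and 0.767 CPM in shControl 1, 13 and 25. It was at 3.48, 1.69 and 2.50 CPM in shASXL2-2 and at 2.89, 1.85 and 2.58 CPM in shASXL2-3. All 6 knockdown samples lay above all 3 controls, though by little between the lowest knockdown sample, shASXL2-2 number 13, and shControl 1. This pattern was found in 2.16% of the genes tested (307 of 14199), and nothing is read from it for AMICA1 and MPZL2, which were chosen for being higher.

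MPZL2 was at 0.798, 0.510 and 0.433 CPM in shControl 1, 13 and 25. The values were 1.64, 0.878 and 0.970 CPM in shASXL2-2 and 1.67, 1.02 and 1.27 CPM in shASXL2-3. The groups again did not overlap, and the sample numbered 1 was the highest in each group, as it was for AMICA1.

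MPZL3, which lies between those genes and was not chosen on its values, was at 1.84, 1.56 and 1.10 CPM in shControl 1, 13 and 25. It stood at 2.81, 2.76 and 2.46 CPM in shASXL2-2 and at 2.38, 2.32 and 2.18 CPM in shASXL2-3. Here too all 6 knockdown samples exceeded all 3 controls, and shASXL2-2 lay above shASXL2-3 throughout. SCN4B, on the other side of AMICA1, was at 0.715, 0.340 and 0.167 CPM in shControl, at 1.51, 0.940 and 1.14 CPM in shASXL2-2 and at 1.26, 0.618 and 0.947 CPM in shASXL2-3. Its groups overlapped, because shASXL2-3 number 13 was below shControl 1. The SCN4B value of 0.167 CPM in shControl 25 rested on 5 counts, the smallest of any in these 4 genes, while shControl 1 had 26.

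**Figure D1:**
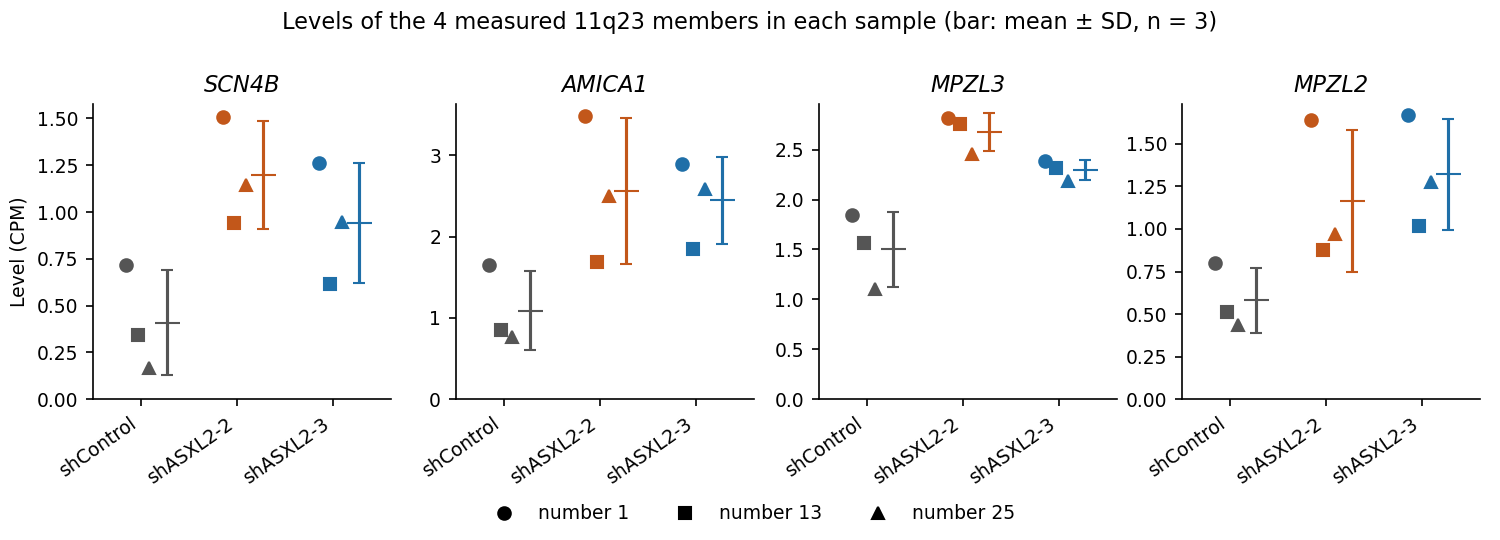
Level in CPM (y axis, from 0) of SCN4B, AMICA1, MPZL3 and MPZL2 in each of the 9 samples, by group (x axis); symbols give the sample number, and the bar beside them the mean ± SD (n = 3). Knockdown samples lie above every control in AMICA1, MPZL3 and MPZL2, and the circle of number 1 is the highest of its group in all 4 panels.

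The remaining members were at or near zero. SCN2B, the beta subunit that lies between SCN4B and AMICA1, had 2, 0 and 1 counts in shControl 1, 13 and 25, 2 counts in each shASXL2-2 sample and 4, 0 and 3 counts in shASXL2-3. Only shASXL2-3 number 1, with its 4 counts, exceeded the floor of 3 counts, so no fold is given and a change of SCN2B was not measurable at this depth. CD3E and CD3G had 0 counts in all 9 samples, which allows a level of up to 0.0847 to 0.108 CPM on the plain totals, depending on the sample. This limit covers counting error only. CD3D had 1 count in shASXL2-2 number 13, 2 counts in shASXL2-2 number 25 and 0 counts elsewhere. The T-cell receptor chains at the telomeric end were thus below the floor of detection in every control and knockdown sample.

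Levels were also divided by the length of the canonical GENCODE transcript, which may differ from the RefSeq transcript counted. Per kb of transcript, which allows a rough comparison between genes, AMICA1 was the most abundant of the 4 in shControl, at 0.581 ± 0.260 CPM per kb (SD, n = 3). MPZL3 followed at 0.377 ± 0.0942, MPZL2 at 0.221 ± 0.0732 and SCN4B at 0.0908 ± 0.0625 CPM per kb. In this order each gene's mean ± SD overlapped with that of the next. In shASXL2-2 the levels were 1.36 ± 0.478 for AMICA1, 0.672 ± 0.0475 for MPZL3, 0.444 ± 0.159 for MPZL2 and 0.267 ± 0.0640 CPM per kb for SCN4B. In shASXL2-3 they were 1.30 ± 0.285, 0.576 ± 0.0254, 0.504 ± 0.125 and 0.210 ± 0.0716 CPM per kb, in the same order. In shASXL2-2 only MPZL2 and SCN4B, and in shASXL2-3 only MPZL3 and MPZL2, still overlapped with their neighbour.

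Set against the control of the same number, every knockdown sample had more of each of the 4 genes, 6 of 6 pairs per gene. Among all genes tested, 11.6% were higher in 6 of 6 pairs, the flanking gene ATP5L among them. AMICA1 and MPZL2 were chosen for being higher, and SCN4B passed the filter through its knockdown samples. Nothing is read from the 6 of 6 pairs for these genes. The ratio to the control ranged over the pairs from 1.76 to 6.86 for SCN4B, from 1.75 to 3.37 for AMICA1, from 1.29 to 2.24 for MPZL3 and from 1.72 to 2.94 for MPZL2. For all 4 genes both pairs numbered 25 gave the highest ratios of their shRNA. In these pairs the ratio was 6.86 and 5.68 for SCN4B, 3.25 and 3.37 for AMICA1, 2.24 and 1.98 for MPZL3 and 2.24 and 2.94 for MPZL2 (shASXL2-2, then shASXL2-3). The control of that number, shared by both pairs, had the lowest level of each of the 4 genes of any sample.

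**Figure D2:**
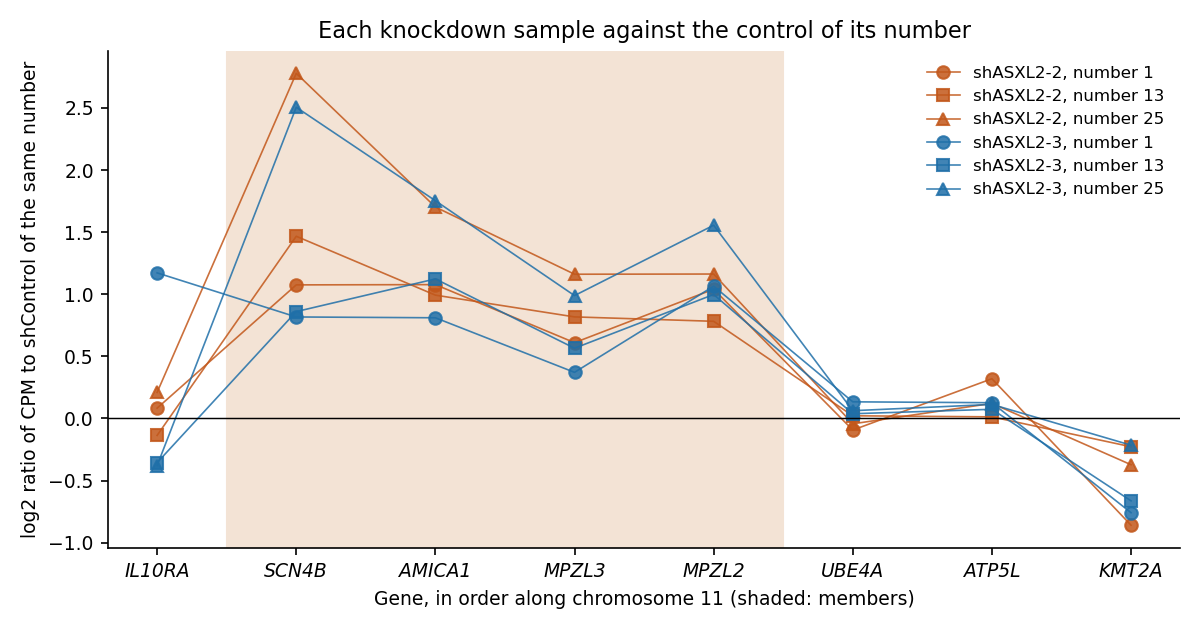
log2 ratio of the CPM of a knockdown sample to that of the control with its number (y axis), for the 4 measured members (shaded) and for the flanking genes IL10RA, UBE4A, ATP5L and KMT2A in chromosomal order (x axis); each line is a knockdown sample, and both samples of a number share a control. All 6 lines are above 0 in the shaded part, from 0.37 to 2.78. They run from -0.093 to 0.13 for UBE4A and from 0.013 to 0.32, again all above 0, for ATP5L. AMICA1 and MPZL2 were chosen for being higher, and SCN4B passed the filter through its knockdown samples.

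Averaged over both shRNAs, MPZL3 gave a log2 fold change of 0.72 (SE 0.20, edgeR without block, adjusted p = 0.623) or, in the fit with the number as a block, 0.73 (SE 0.16, edgeR with block, adjusted p = 0.0653). For SCN4B the values were 1.34 (SE 0.43, edgeR without block, adjusted p = 0.651) and 1.38 (SE 0.30, edgeR with block, adjusted p = 0.0572). Neither passed the threshold of 0.05 over all genes in either fit. As single genes, in a two-sided exact permutation test over the 84 ways to choose 3 of 9 samples, the mean log2 difference gave p = 0.0119 for MPZL3, the smallest p this design allows, and p = 0.0238 for SCN4B. When 1 sample of each number was drawn as control (27 ways), the exact permutation p was 0.0370 for each of them, which is the smallest possible there. Only genes with all knockdown samples above (2.16% of genes tested) or all below the controls (2.61%) can reach the smallest p over 84 ways. Over 27 ways a higher gene must be higher in 6 of 6 pairs, as 11.6% of genes were. SCN4B passed the filter through the knockdown samples, where it was high. Its p values against shControl, here and in the paragraphs below, are therefore a description, and nothing is read from them. The permutation p values are not adjusted, and both genes were listed with earlier results of these data known.

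The values of AMICA1 and MPZL2 in the same contrast are a description. AMICA1 had a log2 fold change of 1.18 (SE 0.34) without the block and 1.20 (SE 0.19) with it. For MPZL2 it was 1.08 (SE 0.32) and 1.09 (SE 0.21). In the fit without the block, 0 of 14199 genes passed the threshold in this contrast (edgeR), while 351 genes (2.47%) were higher at an unadjusted p under 0.05, and the DESeq2 test called 44 genes in all. With the block, 36 genes (0.254%) were called higher, and nothing is read from this count for AMICA1 and MPZL2.

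Leaving out samples changed how MPZL3 stood against the threshold in fits with the block, which were added after the data had been seen. The SCN4B values beside it are a description, and nothing is read from their p values. Without the 3 samples numbered 1, the fit with the block gave MPZL3 a log2 fold change of 0.86 (edgeR, adjusted p = 0.0330) and SCN4B 1.81 (edgeR, adjusted p = 0.0235). Without shASXL2-3 number 1 alone, it gave 0.75 (edgeR, adjusted p = 0.0178) and 1.39 (edgeR, adjusted p = 0.0176), with 1755 genes called in place of 156. Without any single one of the other 8 samples, the adjusted p was 0.0918 to 0.236 for MPZL3 and 0.0714 to 0.187 for SCN4B (edgeR with block). In the fit without the block the SCN4B fold depended on the controls, with a log2 fold change of 2.05 without shControl 1 and 0.98 without shControl 25 beside 1.34 with all samples. For shASXL2-2 alone it was 2.22 without shControl 1 beside 1.52.

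Each shRNA taken alone gave a positive difference for each of the 4 genes. In the fit with the block, MPZL3 was higher by 0.84 log2 units in shASXL2-2 (edgeR, adjusted p = 0.0795) and by 0.62 in shASXL2-3 (edgeR, adjusted p = 0.133). SCN4B was higher by 1.57 in shASXL2-2 (edgeR, adjusted p = 0.0738) and by 1.20 in shASXL2-3 (edgeR, adjusted p = 0.119). The chosen genes had log2 fold changes of 1.22 and 1.19 for AMICA1 and of 0.99 and 1.19 for MPZL2, for shASXL2-2 and shASXL2-3. Over all genes, 0 were called for either shRNA without the block (edgeR), where 264 (1.86%) and 301 (2.12%) were higher at an unadjusted p under 0.05 and DESeq2 called 21 and 19 in all. With the block 14 (0.0986%) and 26 (0.183%) were called higher, and no member was among them. Both comparisons share the 3 control samples, so their likeness is not independent evidence.

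The shRNAs were therefore also compared directly. This difference is between the knockdown groups, but the controls still entered the fit. The spread and, with the block, the effect of the number were estimated over all 9 samples. In the fit with the block the log2 difference of shASXL2-3 from shASXL2-2 was -0.04 for AMICA1, with a 95% interval of -0.48 to 0.40. It was 0.20 (-0.28 to 0.67) for MPZL2, -0.22 (-0.61 to 0.17) for MPZL3 and -0.37 (-1.01 to 0.28) for SCN4B. The adjusted p was between 0.620 and 0.952 with the block and 0.998 for each gene without it (edgeR). Of all genes, 15 (0.106%) differed between the shRNAs with the block and 0 without it, where 166 genes (1.17%) were higher in shASXL2-3 at an unadjusted p under 0.05 and DESeq2 called 11. The intervals are wide enough to hold a difference of the size of the MPZL3 fold for SCN4B, so that equal responses to the shRNAs are not shown.

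**Figure D3:**
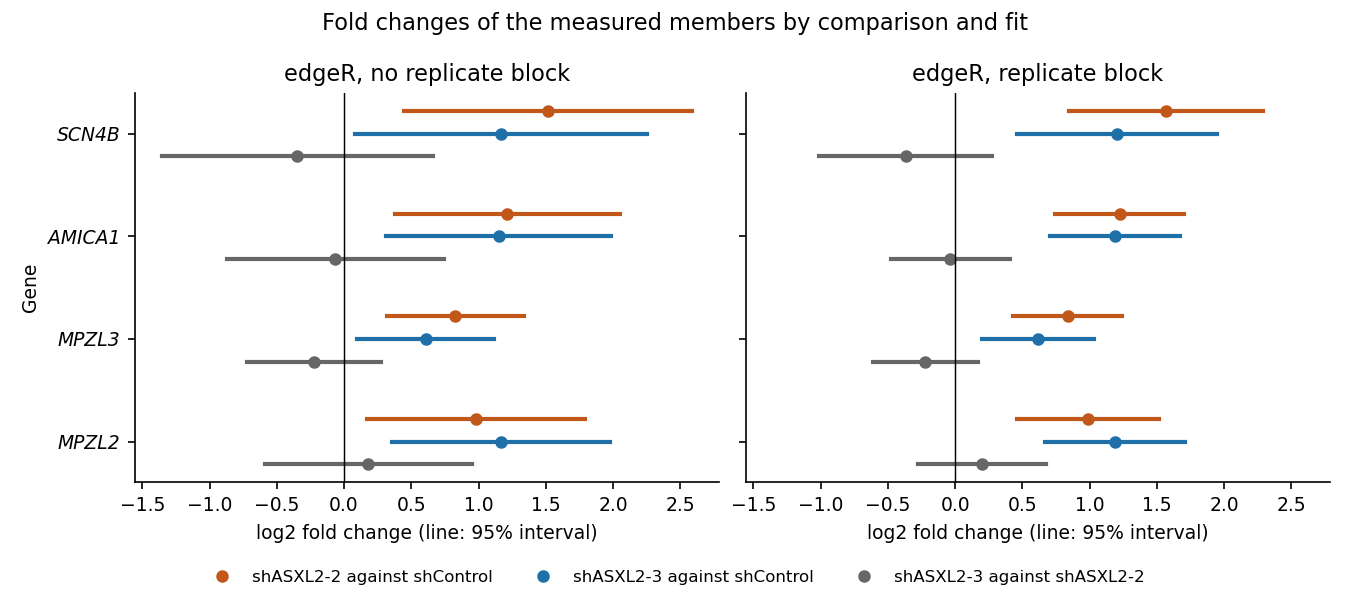
log2 fold change (x axis; line: 95% interval) of the 4 measured members for each shRNA against shControl and for shASXL2-3 against shASXL2-2, from edgeR without (left) and with (right) the replicate block. AMICA1 and MPZL2 were chosen for being higher than shControl, so those intervals are a description, every interval between the shRNAs spans 0, and the intervals are narrower with the block.

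Levels also differed between the sample numbers. In the fit with the block, number 1 exceeded numbers 13 and 25 by 0.70 log2 units for AMICA1 (edgeR, adjusted p = 0.0086), by 0.70 for MPZL2 (edgeR, adjusted p = 0.0122) and by 0.82 for SCN4B (edgeR, adjusted p = 0.0253). MPZL3 differed by 0.22 (edgeR, adjusted p = 0.276). Since 24.1% of all genes were called higher in number 1, the count of 3 among 4 members is set against a high background. This comparison was added after the data had been seen.

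Different RefSeq transcripts of a gene gave nearly the same ratio of knockdown to control. Over the 5 rows of AMICA1 the log2 ratio was 1.20 to 1.24, over the 4 rows of MPZL3 0.72 to 0.75 and over the 4 rows of SCN4B 1.38 to 1.39. The rows of a gene share most of their reads, so this is no repeat measurement. MPZL2 had a second row, NM_144765, with 141 counts against 279 in the row used, and a ratio of 0.89 against 1.10.

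The flanks were examined to see how far the higher values extended. Within 1000 kb of the outermost members, 53 other genes of the files were annotated and 39 passed the filter, 9 on the centromeric and 30 on the telomeric side. Their median log2 fold change, averaged over both shRNAs and with the block, was 0.02, beside 0.01 over all genes tested, and they ranged from -0.94 to 0.31. The 4 measured members ranged from 0.73 to 1.38. AMICA1 and MPZL2 were chosen for being higher, and SCN4B passed the filter through its knockdown samples, so their distance from the neighbours is a description. MPZL3, at 0.73, was subject to neither, though it was listed with earlier results of these data known. No neighbour was called in either direction in either fit (edgeR). At an unadjusted p under 0.05, 0 of 39 were higher in either fit, beside 2.47% of all genes without the block and 9.49% with it. At the same p 4 were lower without the block and 7 with it, beside 4.16% and 11% of all genes. No neighbour had all knockdown samples above all controls, and 3 had all below, as had 2.61% of all genes tested.

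On the centromeric side the nearest genes with counts were TMPRSS4, a membrane serine protease, and IL10RA, the ligand-binding chain of the interleukin-10 receptor. TMPRSS4 had 0 to 3 counts per sample and did not pass the filter. IL10RA was at 2.75, 2.69 and 2.37 CPM in shControl 1, 13 and 25, at 2.91, 2.44 and 2.74 CPM in shASXL2-2 and at 6.20, 2.10 and 1.82 CPM in shASXL2-3. Apart from shASXL2-3 number 1, which was high, its groups overlapped, and the log2 fold change with the block was 0.16 (SE 0.27; edgeR, adjusted p = 0.770).

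On the telomeric side, past the CD3 genes, the nearest were UBE4A, a ubiquitin ligase, and ATP5L, a subunit of the mitochondrial ATP synthase. UBE4A was far more abundant than the members, with a mean of 142 ± 8.69 CPM in shControl, 138 ± 6.0 in shASXL2-2 and 150 ± 12.2 in shASXL2-3 (SD, n = 3), and its log2 fold change was 0.02 (SE 0.06, edgeR with block, adjusted p = 0.870). ATP5L had a mean of 262 ± 19.7, 290 ± 9.66 and 281 ± 17.1 CPM and a log2 fold change of 0.13 (SE 0.07, edgeR with block, adjusted p = 0.294). KMT2A, the histone methyltransferase gene rearranged in other leukaemias, was named after its values were seen, because it had the smallest p of the flank. It was at 438, 313 and 314 CPM in shControl 1, 13 and 25, at 241, 267 and 243 CPM in shASXL2-2 and at 259, 198 and 271 CPM in shASXL2-3. All its knockdown samples lay below all controls, the opposite direction to the members, with a log2 fold change of -0.52 (SE 0.11, edgeR with block, adjusted p = 0.0572).

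**Figure D4:**
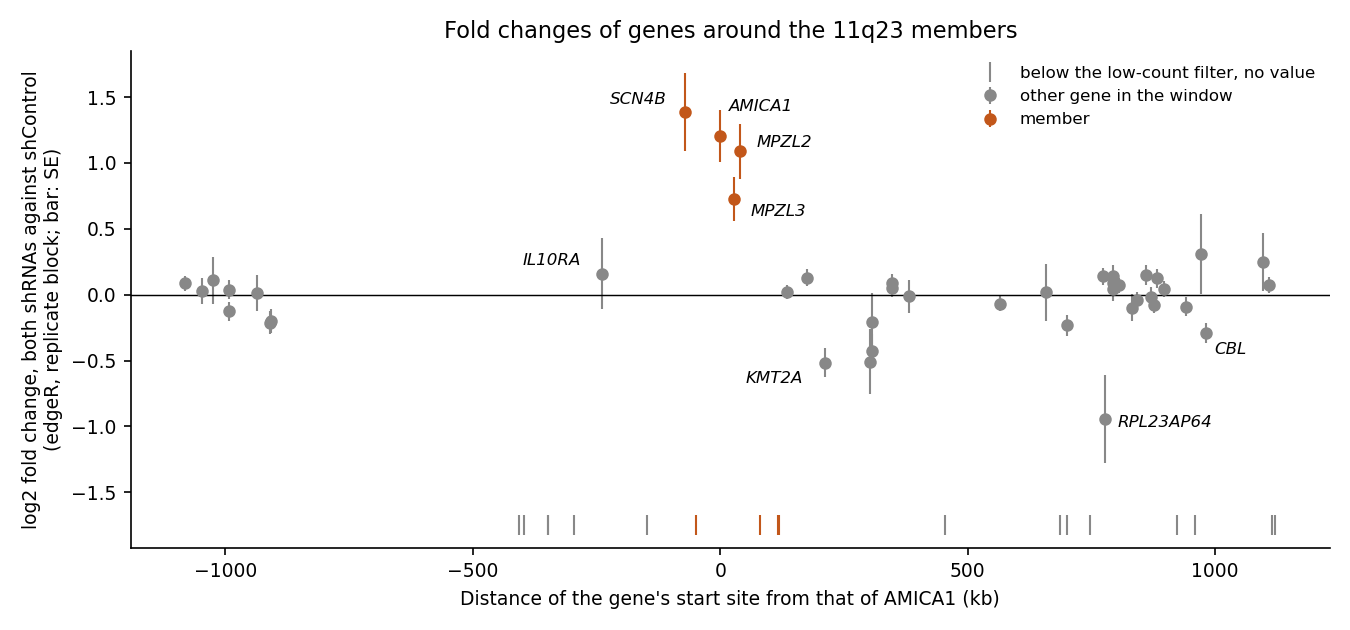
log2 fold change averaged over both shRNAs with its SE (y axis; edgeR with the replicate block) against the distance of each gene's start site from that of AMICA1 (x axis, kb) for the genes within 1000 kb of the members; ticks mark genes below the low-count filter. The 4 measured members stand between 0.73 and 1.38, and the 39 other genes between -0.94 and 0.31. AMICA1 and MPZL2 were chosen for being higher, and SCN4B passed the filter through its knockdown samples.

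In a further description, made after the data had been seen, all tested genes with a position were taken in runs of 4 neighbours. Of 13624 such runs, 1 had all 4 log2 fold changes at 0.5 or more (with the block, averaged over both shRNAs), and it was the run SCN4B, AMICA1, MPZL3 and MPZL2. No run had all 4 at -0.5 or less. Single genes at 0.5 or more made up 1.96% of those tested. The run includes AMICA1 and MPZL2, chosen for being higher, and SCN4B, which passed the filter through its knockdown samples. Its length and the cut of 0.5 were set with the data seen. Nothing is read from its being the only one, and no test is attached to it.

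Genes with the most similar pattern were ranked by the root mean square difference of the 6 log2 differences from the control of the same number, over 12641 tested genes with a mean of at least 1 CPM. The closest to AMICA1 were MPZL2 (0.30), GPR97 (0.33), an adhesion G protein-coupled receptor of granulocytes on chromosome 16, and MPZL3 (0.48). The closest to MPZL2 were GPR97 (0.13), METRNL (0.24), which encodes a secreted protein and lies on chromosome 17, and AMICA1 (0.30), with MPZL3 at rank 6 (0.38). SCN4B was below 1 CPM on average and was not ranked. AMICA1 and MPZL2 were both chosen for being higher in these differences, which by itself places them near each other. The 6 differences rest on the same 3 controls, and no test is attached to the ranking.

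Relatives of the members elsewhere in the genome were examined alongside. Of 11 genes of the junctional adhesion molecule and CTX family, 6 were tested and 0 called in either fit, with a median log2 fold change of -0.06 with the block, beside 0.01 over all genes. The most abundant were F11R, which encodes JAM-A, with a log2 fold change of -0.06 (SE 0.10, edgeR with block, adjusted p = 0.788), and JAM3 with 0.09 (SE 0.14, edgeR with block, adjusted p = 0.767). CXADR, the receptor for AMICA1, was at 0.0736 CPM on average and did not pass the filter.

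MPZL1, a widely expressed surface receptor related to MPZL2 and MPZL3, was at 81.5 ± 7.91 CPM in shControl, 70.4 ± 12.1 in shASXL2-2 and 87.9 ± 13.5 in shASXL2-3 (SD, n = 3). Knockdown and control samples overlapped, with a log2 fold change of -0.06 (SE 0.06, edgeR with block, adjusted p = 0.592).

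Among 11 other sodium channel subunit genes 3 were tested, 5 had no count in any sample and 0 were called, with a median of -0.14. SCN11A gave 0.25 (SE 0.24, edgeR with block, adjusted p = 0.625) and SCN9A -0.14 (SE 0.28, edgeR with block, adjusted p = 0.810). Both encode pore-forming subunits and were at 0.620 and 0.619 CPM on average. Of 20 genes of T-cell receptor signalling, 12 were tested and 0 called, with a median of -0.02. CD4, a co-receptor that myeloid cells carry as well, was at 487 CPM and gave -0.03 (SE 0.07, edgeR with block, adjusted p = 0.862), and CSK, the kinase that restrains SRC-family kinases, was at 167 CPM and gave 0.01 (SE 0.05, edgeR with block, adjusted p = 0.937). LCK, the first kinase of the T-cell receptor pathway, was at 0.0290 CPM, below the floor.

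Markers of other cell types bear on AMICA1, CD3 and MPZL2, which T cells, granulocytes or epithelia are known to carry. In bulk RNA a change in the number of cells of a type and a change in RNA per cell cannot be told apart. The 12 T-cell markers summed to 4.30 to 4.68 CPM in shControl, 4.73 to 5.49 in shASXL2-2 and 4.48 to 6.27 in shASXL2-3. Of these 4 were tested and 0 called, all 4 with a positive log2 fold change and a median of 0.21 with the block. IL7R, the interleukin-7 receptor chain, had the highest, 0.78 (SE 0.29, edgeR with block, adjusted p = 0.175). CD28 and SH2D1A had no count, and the part of these cells in the results was not tested. The 8 epithelial markers summed to at most 0.136 CPM in any sample, and none passed the filter. Of 8 neutrophil markers 3 were tested and 1 was called, with the block only: CSF3R, the G-CSF receptor, whose log2 fold change was -0.43 (SE 0.08, edgeR with block, adjusted p = 0.0385). The other tested neutrophil markers had positive values, 0.26 (SE 0.10, edgeR with block, adjusted p = 0.189) for CXCR2, a chemokine receptor, and 0.40 (SE 0.36, edgeR with block, adjusted p = 0.592) for S100A8, a calcium-binding protein of granulocytes, and the median of the 3 was 0.26. The summed neutrophil markers, of which CSF3R made up most, were 179 to 289 CPM in shControl, 129 to 242 in shASXL2-2 and 153 to 216 in shASXL2-3. None was called of the tested markers of myeloid progenitors (10 tested), B cells (3), NK cells (1), monocytes or macrophages (3), erythroid cells (2) and megakaryocytes (2), in either fit.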

How the data were processed

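Messenger RNA of 9 SKNO-1 samples (3 groups of 3) was analysed. The authors deposited whole-number counts per RefSeq transcript on hg19, not normalized; the submitters' processing notes name STAR, featureCounts and DESeq2 without roles, and the paper describes poly(A) selection without strand information. The extraction text in the labels describes sorted bone marrow cells, not this cell line. Rows of a gene share reads, so each of 25680 symbols was represented by its row with the highest total (48104 rows; the sum over all rows was 2.24 times as large), and a shift between isoforms could move a value. AMICA1 was matched to JAML by accession. Gene positions came from the GENCODE annotation on GRCh37, promoters from a RefSeq table on GRCh38.p14.

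Counts were tested with edgeR 4.0.16 (R 4.3.3; quasi-likelihood, filterByExpr at its defaults of 10 counts and a total of 15, TMM, Benjamini-Hochberg over 14199 genes, threshold 0.05), without a block (6 residual degrees of freedom) and with the sample number as a block (4). CPM are TMM-scaled. The numbers were taken to pair the samples, since deviations from group means correlated at 0.398 to 0.731 in every same-number pair; the labels do not say what the numbers mark. Members and gene lists were chosen with earlier results of these data known. Named genes were the 8 members, ASXL2, the 2 nearest genes with counts on each side, any gene of the window or lists past the threshold in either fit (otherwise the 2 most abundant of a list) and the 3 most like AMICA1 and MPZL2 (pseudocount 0.1 CPM); for lists of cell type markers without a call only counts are given. A member of the lists is not reported here. DESeq2 1.42.0, other filters and left-out samples were alternatives. On simulated counts for the mean contrast (200 genes changed by 1 log2 unit), 67.5% of the changed set was recovered with no block (14081 genes fitted; 6.90% of calls false) and 86% with it (14103 genes fitted; 8.51% of calls false). The simulation without the block held no shared effect of the sample number, and its changed genes were of any abundance. Those shares are therefore no estimate for the rare members. Replicates of a group differed by more than sampling noise (chi-square per degree of freedom 18.1 to 134). Floors of detection cover counting error only, and fold-change intervals the spread between samples, as reads carried no molecular identifiers.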

Additional observations from a re-analysis of the deposited data

How the results depend on the processing

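The log2 fold changes of the 4 measured members against shControl were positive under all 29 alternatives in each comparison, from 0.98 to 2.05 for SCN4B, 0.99 to 1.62 for AMICA1, 0.54 to 0.89 for MPZL3 and 0.87 to 1.38 for MPZL2 averaged over both shRNAs. AMICA1 and MPZL2 were chosen for this difference and get no p here. For MPZL3, not chosen on it, the adjusted p was 0.0178 to 1.00 (edgeR or DESeq2). For SCN4B it was 0.0176 to 1.00 (edgeR or DESeq2). This is a description only, as SCN4B passed the filter through its knockdown samples. The median of the neighbours stayed between -0.02 and 0.04. Counts of 13 to 104 reads per sample in AMICA1, MPZL2 and MPZL3, and of 5 to 45 in SCN4B, limit the precision.

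With all samples, edgeR without the block called 0 genes in any comparison. For shASXL2-2, shASXL2-3, both shRNAs averaged and shASXL2-3 against shASXL2-2, in that order, the replicate block called 40, 59, 156 and 15 genes; the block with a transcript-length correction 6, 28, 22 and 18; the block over the same genes uncorrected 38, 48, 74 and 13; DESeq2 21, 19, 44 and 11; DESeq2 with the block 362, 460, 610 and 144; and the block without the 3 samples numbered 1 267, 341, 370 and 129. Leaving out 1 sample at a time gave 0 to 1604, 0 to 368, 0 to 1755 and 0 to 257 genes over both fits, with the highest of the first 3 without shASXL2-3 number 1 and of the last without shASXL2-3 number 13, each with the block. Fits with DESeq2 and block, over genes with a length, and blocked fits with samples left out were chosen after seeing the data.

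Of the 4 measured members, 0 were called without the block. With the block, averaged over both shRNAs, 2 were (AMICA1 and MPZL2, chosen for this difference, so nothing is read from the count), 3 without the samples numbered 1, 1 over genes with a length, 0 with the length correction and 1 by DESeq2 with the block; leaving out single samples gave 0 to 4. For shASXL2-2 these were 3 without the samples numbered 1, 1 by DESeq2 with the block and 0 to 4 with single samples left out. For shASXL2-3 they were 1, 1 and 0 to 2. The block changed no other call of a member.

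The difference between the shRNAs changed sign for AMICA1 without the samples numbered 1 (0.077 without and 0.081 with the block) and ranged from -0.28 to 0.22 with single samples left out; that of MPZL2 ranged from -0.024 to 0.51 with single samples left out. The exact permutation p without the samples numbered 1 was 0.0667 for SCN4B and for MPZL3, the smallest 15 splits allow. Without single samples it was 0.0179 to 0.0714 for SCN4B, the highest without shControl 13 or shControl 25, where the smallest possible was 0.0357. For SCN4B these permutation p values are a description only. The cause of these changes was not tested.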
